A study of Rattus norvegicus with 6 samples.

Results

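The miRNAs described here belonged to the miR-10 family and to the miR-125 family with its cluster partners miR-99 and miR-100, taken as every rat name of the count table built on miR-10a, miR-10b, miR-99a, miR-99b, miR-100, miR-125a, or miR-125b, with both the 5p and the 3p arm. The rule found 15 of the 910 names in the table, 4 from miR-10a and miR-10b and 11 from the other genes. Small RNA was sequenced from lens capsules of 6 Sprague-Dawley rat pups, 3 in the control group and 3 in the Na2SeO3 group. The Na2SeO3 pups received sodium selenite at 20 μmol/kg under the skin of the neck on days 3, 5, and 7, a treatment that clouds the lens of young rats, and the control pups received saline in the same way. The study's methods give an age of 8 days for the pups at the start and day 15 of the experiment for taking the lens, and they name no other treatment or allele for either group. Whether the injection days count from birth or from the start of the experiment is not stated outright in the sources used here. Counted from birth, they would come before the stated start at 8 days of age. The exact age at injection is not given. As a model, selenite cataract is an acute injury of the immature lens. The library totals were 1806596 to 2829903 counts in the control group and 663096 to 968151 counts in the Na2SeO3 group, so the Na2SeO3 values rest on fewer reads. Of the raw reads that the study lists, 25.6% to 39.7% were counted on miRNA names in the control libraries and 11.4% to 13.0% in the Na2SeO3 libraries, a difference without overlap whose part in the results was not tested.

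These families are among the oldest miRNAs of animals, and the 5p arms of miR-10 and miR-100 resemble each other. A miRNA recognizes its target mRNAs mainly through the seed, the bases near its 5′ end, so a shift of the start by a base or more changes the set of targets. The miR-10 genes sit inside the Hox clusters, which pattern the body axis. The miR-125 genes and those of miR-99 and miR-100 instead lie in clusters together with a let-7 gene, and miR-125 is the vertebrate relative of lin-4, the first miRNA described in worms. miR-99 and miR-100 are known to restrain mTOR signalling, and let-7 and miR-125 are known for their rise as cells differentiate.

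In the RefSeq annotation of GRCr8, Mir10a lies between Hoxb5 and Hoxb4, and Mir10b lies inside Hoxd4. Mir99a, Mirlet7c1, and Mir125b2 follow each other in this order, as do Mir100, Mirlet7a-2, and Mir125b1. In the remaining cluster Mir99b, Mirlet7e, and Mir125a lie inside Spaca6. The genome build behind the count table is not given in the sources used here, so no positions are printed.

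Mature sequences were found in RefSeq (GRCr8) for 14 of the 15 names, and rno-miR-99a-5p was the name without an entry. The 5p arms are shown first because they carry nearly all reads, with the seed (bases 2 to 8, counted from 1 at the 5′ end) in capitals.
rno-miR-10a-5p: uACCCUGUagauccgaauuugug
rno-miR-10b-5p: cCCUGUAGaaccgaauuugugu
rno-miR-100-5p: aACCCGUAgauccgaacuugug
rno-miR-99b-5p: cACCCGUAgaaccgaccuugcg
rno-miR-125a-5p: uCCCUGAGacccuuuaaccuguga
rno-miR-125b-5p: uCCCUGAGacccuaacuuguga

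miR-100-5p and miR-99b-5p share the seed ACCCGUA, and miR-125a-5p and miR-125b-5p share the seed CCCUGAG. The annotated miR-10b-5p starts 2 bases further in than miR-10a-5p, so the annotated seeds of these 2 differ, although 20 of the 21 bases they have in common are the same. The difference is U12A, with the miR-10a-5p base first and positions counted in miR-10a-5p. The likeness extends across the families, since miR-10a-5p and miR-100-5p are the same at 19 of 22 aligned bases. How the authors' counting divided reads among such near-identical names was not tested, so the split between members is uncertain where they differ by few bases.

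All 15 names had a count in at least 1 library, but the levels ranged over several orders of magnitude. Levels are given as normalised read counts, which are CPM values (reads scaled to a common library size) after TMM scaling, a method that assumes most miRNAs keep their share. Each read stands for a whole mature miRNA of nearly the same length, so that levels of different names were compared without a length correction. Whether different sequences entered the libraries equally well was not tested, so comparisons between names are of read counts, not of molecules. rno-miR-99a-5p had by far the most reads of the members and ranked second of all names in both groups. Its share of all counts was 16.6%, 15.3%, and 14.2% for control libraries 1 to 3, as against 13.3%, 15.1%, and 12.0% for Na2SeO3 libraries 1 to 3. Between 90.7% and 93.0% of the members' reads in each library were miR-99a-5p. The 15 names added up to 16.6% ± 1.29 of control counts and 14.7% ± 1.63 of Na2SeO3 counts (SD, n = 3 each), and these shares overlapped between the groups. Without miR-99a-5p the let-7-linked members took 1.15% ± 0.125 and 1.17% ± 0.170 (SD, n = 3 each).

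The order of the 5p arms was almost the same in every library. From the highest to the lowest it was miR-99a-5p, miR-100-5p, miR-125b-5p, miR-99b-5p, miR-125a-5p, miR-10b-5p, and miR-10a-5p in 4 libraries. In the other 2 libraries miR-99b-5p stood above miR-125b-5p, while all other neighbours kept their order. miR-99b-5p and miR-125b-5p did not differ beyond their spread in the Na2SeO3 group, at 2884 ± 709 and 2659 ± 453 CPM (SD, n = 3 each). The Hox-locus miRNAs were the lowest, at 0.0592% ± 0.0133 (SD, n = 3) of control counts and 0.0282% ± 0.00345 (SD, n = 3) of Na2SeO3 counts.

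**Figure D1:**
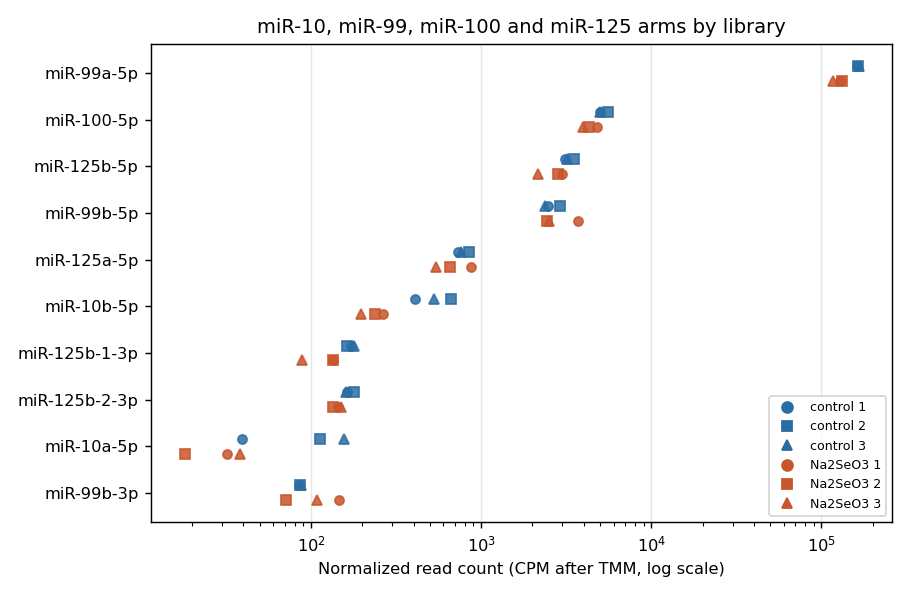
Normalised read counts (CPM after TMM scaling, log axis) of the 10 arms with enough reads for the test, with 1 point per library, control in blue and Na2SeO3 in orange. miR-99a-5p stands far above every other arm, and the miR-10b-5p points of the groups are well apart, whereas control library 1 sits beside the Na2SeO3 libraries for miR-10a-5p.

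Both Hox-locus miRNAs were lower in the Na2SeO3 group, and the let-7-linked members tested had smaller log2 fold changes, from -0.52 to 0.31. Of these 8, 6 were below 0, with a median of -0.24 against 0.08 over all miRNAs tested. The reads of miR-10b-5p and miR-10a-5p relative to miR-99a-5p did not pass a test (exact permutation test, adjusted p = 0.4 and 0.6). With 3 libraries against 3, that test cannot give a p below 0.1. miR-10b-5p was down-regulated 2.29-fold and miR-10a-5p 3.49-fold, and these were the only members that met the study's rule for differentially expressed miRNAs (DEmiRNAs), an adjusted p-value below 0.05 with an absolute log2 fold change above 1. Among the let-7-linked members miR-99a-5p was the one that passed the adjusted p-value, with a fall of 1.31-fold, while miR-125b-1-3p was at the threshold (adjusted p = 0.0504, edgeR). No member was up-regulated. In bulk tissue, fewer cells of a type and less of a miRNA per cell cannot be told apart.

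Of the 15 names, 10 had enough reads to be tested, and each of the 10 reached the minimum level of 7.21 CPM (before TMM scaling) in all 6 libraries, so none was tested through 1 group alone. With edgeR's quasi-likelihood test, adjusted by Benjamini-Hochberg over all 341 miRNAs tested, 3 of the 10 were lower and 0 were higher in the Na2SeO3 group, where 13.8% of all miRNAs tested were lower and 20.8% were higher. As DEmiRNAs, 2 of the 10 were down-regulated, against 4.99% of all miRNAs tested. In 7 of the 10 every Na2SeO3 library lay below every control library, a pattern found in 21.1% of all miRNAs tested, and in 0 of the 10 did every Na2SeO3 library lie above (25.2% of all miRNAs tested, and 46.3% in either direction). These counts hold for TMM-scaled values only. As plain shares of counts miR-10a-5p and miR-10b-5p stayed apart, while miR-99a-5p, miR-100-5p, and all miR-125b arms overlapped between the groups. The median log2 fold change was -0.28 over the 10 and 0.08 over all 341. These counts describe the families and are no test of them.

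miR-10b-5p comes from the Hoxd cluster. Its normalised read counts were 410, 666, and 530 CPM in control libraries 1 to 3, against 266, 238, and 197 CPM in Na2SeO3 libraries 1 to 3, resting on 819 to 1288 and 179 to 263 reads. Every Na2SeO3 library lay below the lowest control library. Mean levels went from 535 ± 128 to 234 ± 35.0 CPM (SD, n = 3 each), and edgeR gave a log2 fold change of -1.20 with a standard error of 0.20 and an adjusted p of 0.000658. The adjusted p stayed below 0.05 under all 17 alternatives, with 0.0127 as the highest and 7.3e-09 as the lowest. With the summed counts as the only scale the value was -0.99, just short of the fold change of the DEmiRNA rule.

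miR-10a-5p comes from the Hoxb cluster. It was at 39.4, 113, and 157 CPM in the control libraries and at 32.0, 18.1, and 38.5 CPM in the Na2SeO3 libraries, in the order of their numbers, from 114, 218, and 243 reads and 22, 20, and 35 reads. The control libraries were widely spread, and control library 1 was only just above the highest Na2SeO3 library. The mean levels were 103 ± 59.5 and 29.5 ± 10.4 CPM (SD, n = 3 each). The log2 fold change was -1.80 with a wide interval (standard error 0.44, 95% confidence interval -2.75 to -0.86, adjusted p = 0.00670, edgeR). The call rested on control libraries 2 and 3, since the adjusted p rose to 0.0596 without control library 2 and to 0.0704 without control library 3 (log2 fold changes of -1.73 and -1.37), and it was 0.114 with a robust estimate of the dispersion. Over all alternatives the adjusted p of miR-10a-5p ranged from 4.77e-10 to 0.114.

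After TMM scaling miR-99a-5p varied little within the control group, although its share of all counts there went from 14.2% to 16.6%. It was at 162000, 164300, and 165600 CPM in control libraries 1 to 3, against 127900, 132400, and 116100 CPM in Na2SeO3 libraries 1 to 3. On this scale the groups did not overlap, but as shares of all counts they did, with 15.1% in Na2SeO3 library 2 and 14.2% in control library 3. In edgeR's fit the log2 fold change was -0.39, with 0.11 as its standard error and an adjusted p of 0.0141. This small change depended on the scale of the libraries, and with the summed counts as the only scale it was -0.19 (adjusted p = 0.214). It also missed the threshold without a filter on low counts (adjusted p = 0.0596, log2 fold change -0.47), and over the alternatives its adjusted p ranged from 9.97e-09 to 0.214.

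The cluster partners miR-100-5p and miR-125b-5p had intervals that reached 0. miR-100-5p was at 4972, 5579, and 4970 CPM in the control group and at 4768, 4285, and 3959 CPM in the Na2SeO3 group, for a log2 fold change of -0.25 (95% confidence interval -0.57 to 0.06) at an edgeR adjusted p of 0.208. miR-125b-5p was at 3117, 3519, and 3198 CPM and at 3004, 2825, and 2146 CPM, for a log2 fold change of -0.30 (95% confidence interval -0.66 to 0.05) at an edgeR adjusted p of 0.182. For both, the Na2SeO3 libraries lay below the control libraries after TMM scaling, but the differences did not pass the test. As plain shares of counts the groups overlapped for both, and with the summed counts as the only scale the log2 fold changes were -0.06 and -0.11.

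The Spaca6 cluster differed from this in part. miR-99b-5p was at 2473, 2914, and 2382 CPM in the control group and at 3701, 2434, and 2515 CPM in the Na2SeO3 group, so that only Na2SeO3 library 1 stood out, on the high side. Its log2 fold change was 0.15 (95% confidence interval -0.24 to 0.55, adjusted p = 0.565, edgeR), and -0.09 without Na2SeO3 library 1. miR-125a-5p was at 732, 844, and 765 CPM in the control group and at 869, 651, and 545 CPM in the Na2SeO3 group, with overlap between the groups and a log2 fold change of -0.18 (95% confidence interval -0.58 to 0.21) at an edgeR adjusted p of 0.489.

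**Figure D2:**
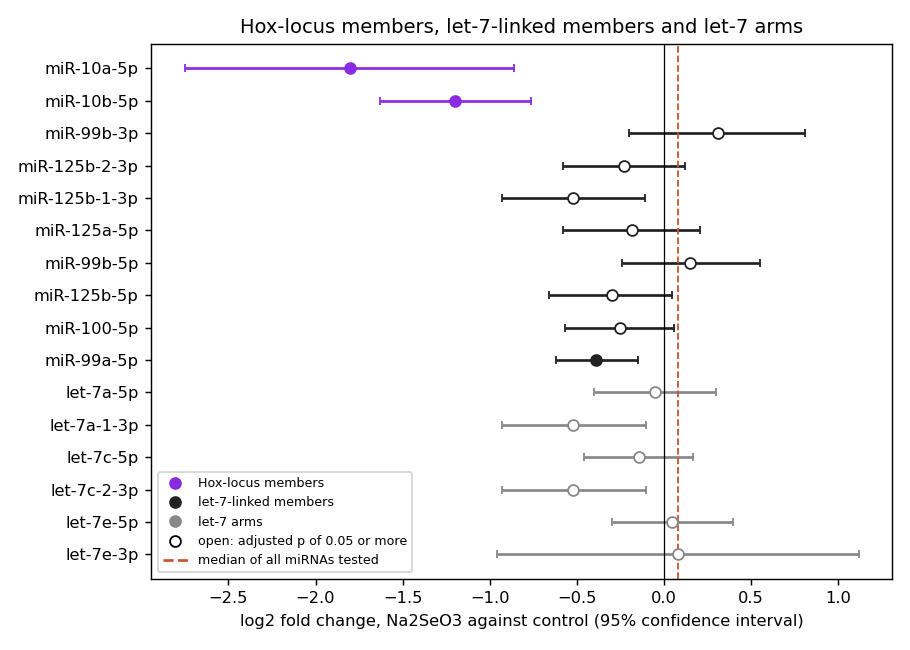
log2 fold changes of the 10 members tested and of the 6 let-7 arms tested, Na2SeO3 against control, with 95% confidence intervals from edgeR's quasi-likelihood fit, filled where the adjusted p-value was below 0.05. The estimates of miR-10a-5p and miR-10b-5p are -1.80 and -1.20, and all let-7-linked members and let-7 arms have estimates between -0.52 and 0.31. The intervals of these sets overlap in part. Those of miR-10a-5p and miR-10b-5p reach up to -0.86 and -0.76, and those of miR-125b-1-3p and let-7e-3p down to -0.93 and -0.96. Of the 8 let-7-linked members, 6 are below 0 (dashed line, median of all miRNAs at 0.08).

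The 3p arms were sparse, and 3 of the 8 could be tested. The 3p arm is the strand opposite the 5p arm in the hairpin, and for these genes it is usually discarded. The 5 arms without enough reads had at most 17 counts in a library. They were miR-10a-3p (0 to 1 counts), miR-10b-3p (0 to 3), miR-99a-3p (0 to 12), miR-100-3p (1 to 8), and miR-125a-3p (4 to 17). A count of 0 in an Na2SeO3 library still allows up to 3 counts, or 2.72 to 4.36 CPM, which covers counting error alone. miR-99a-3p held at most 0.00468% of the reads of both miR-99a arms in a library, whereas miR-99b-3p held 2.82% to 4.11% of the reads of its own 2 arms.

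miR-99b-3p was at 84.9, 86.3, and 87.3 CPM in the control group and at 145, 70.8, and 108 CPM in the Na2SeO3 group. The control libraries were nearly equal and the Na2SeO3 libraries lay on either side of them, with a log2 fold change of 0.31 (95% confidence interval -0.20 to 0.81) at an edgeR adjusted p of 0.347.

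The 3p arms of miR-125b tell its 2 genes apart, which the 5p arm cannot. The miR-125b-5p sequence is listed for Mir125b2 and also occurs in the hairpin of Mir125b1, while the 3p arms differ at 4 of 22 bases (G3A, G4A, U7C, and G20C, with the miR-125b-1-3p base first and positions counted in that arm). They are shown with their seeds in capitals.
rno-miR-125b-1-3p: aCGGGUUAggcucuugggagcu
rno-miR-125b-2-3p: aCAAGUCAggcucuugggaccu

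The 3p arms of both miR-125b genes were counted at about equal levels. Of the reads of both 3p arms, miR-125b-1-3p held 51.5%, 47.5%, and 52.5% in control libraries 1 to 3, against 48.2%, 50.0%, and 37.3% in Na2SeO3 libraries 1 to 3. Na2SeO3 library 3 was the lowest (95% Wilson interval 31.2% to 43.9%, counting error only), and the other 5 lay close together. For each read of the 3p arms there were 9.0 to 10.8 reads of miR-125b-5p in every library.

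miR-125b-1-3p was at 172, 162, and 178 CPM in the control group and at 134, 134, and 89.0 CPM in the Na2SeO3 group. The groups were without overlap after TMM scaling, but overlapped as plain shares of counts. The log2 fold change of -0.52 (95% confidence interval -0.93 to -0.11) missed the threshold by little (adjusted p = 0.0504, edgeR), and it passed under 10 of the 17 alternatives, among them RLE scaling (0.0289), DESeq2 (0.0265), and limma-voom (0.0477), with a range from 2.12e-05 to 0.226. miR-125b-2-3p was at 162, 179, and 161 CPM and at 144, 134, and 149 CPM, with a log2 fold change of -0.23 (95% confidence interval -0.58 to 0.12) at an edgeR adjusted p of 0.313.

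A ratio of 2 members within a library does not depend on how libraries are scaled, and it was used to ask whether members moved apart. For each 1000 reads of miR-99a-5p there were 2.53, 4.05, and 3.20 reads of miR-10b-5p in control libraries 1 to 3, against 2.08, 1.80, and 1.69 in Na2SeO3 libraries 1 to 3. The ratio was lower in all 3 Na2SeO3 libraries than in any control library, by 0.79 on average on the log2 scale (p = 0.1 in a two-sided exact permutation test, as low as 3 libraries against 3 can go, and 0.4 after adjustment over the 8 pairs compared). The same ratio for miR-10a-5p was 0.243, 0.686, and 0.949 in the control group and 0.250, 0.137, and 0.331 in the Na2SeO3 group. Control library 1 thus lay below Na2SeO3 libraries 1 and 3, and the mean log2 difference of -1.27 could not be separated from the spread (exact permutation test, p = 0.3, adjusted p = 0.6).

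Within the Hox-locus pair the balance varied more among animals than between groups. miR-10a-5p made up 8.76%, 14.5%, and 22.9% of the reads of miR-10a-5p and miR-10b-5p in control libraries 1 to 3. In Na2SeO3 libraries 1 to 3 it made up 10.7%, 7.07%, and 16.4%. The log2 ratio differed by -0.48 between the groups (exact permutation test, p = 0.5, adjusted p = 0.667), and this was not larger than the SD of 0.81 within the control group.

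Ratios among the let-7-linked members varied little between libraries. There were 1.59, 1.59, and 1.55 reads of miR-100-5p for each read of miR-125b-5p in the control group and 1.59, 1.52, and 1.84 in the Na2SeO3 group (exact permutation test, p = 0.8, adjusted p = 0.8). Among these pairs miR-99b-5p to miR-125a-5p was the one whose groups did not overlap, with 3.38, 3.45, and 3.11 reads of miR-99b-5p per read of miR-125a-5p in the control group and 4.26, 3.74, and 4.61 in the Na2SeO3 group. The log2 difference was 0.34 (exact permutation test, p = 0.1, the smallest possible, adjusted p = 0.4), although neither arm passed the test on its own. The remaining 3 pairs overlapped, with log2 differences of -0.07 for miR-99a-5p to miR-125b-5p, -0.13 for miR-99a-5p to miR-100-5p, and 0.11 for miR-125a-5p to miR-125b-5p.

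**Figure D3:**
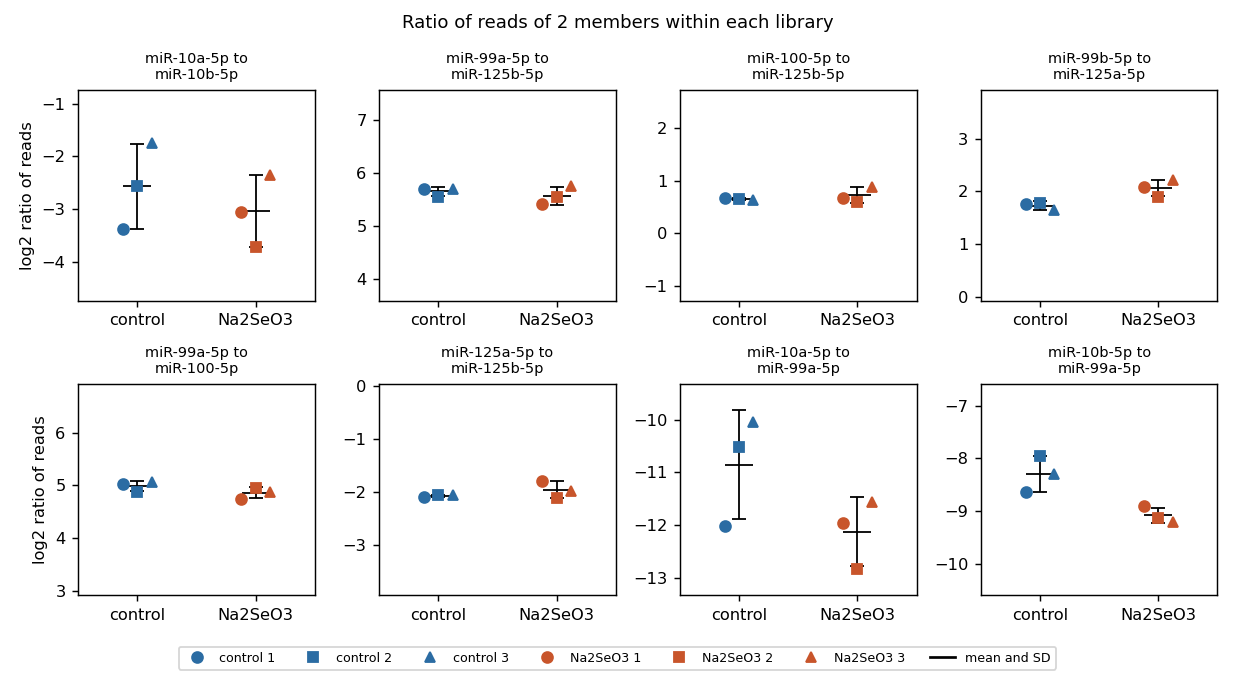
log2 ratio of the reads of 2 members within each library for the 8 pairs compared, with 1 point per library and the mean and SD of each group in black, and every panel spanning 4 log2 units. The ratio of miR-10b-5p to miR-99a-5p is lower in all 3 Na2SeO3 libraries, the ratios with miR-10a-5p are spread widely, and of the let-7-linked ratios that of miR-99b-5p to miR-125a-5p is higher in all 3 Na2SeO3 libraries, while the others overlap.

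The size of these changes depended on what the libraries were scaled to, and a change of scale moves all miRNAs nearly alike, so their distance from the median of all miRNAs is nearly fixed. Scaled to the total raw reads that the study lists for each library, in place of the counted miRNA reads, all miRNAs tested moved in their median log2 fold change from 0.08 to -1.07, and all 10 members tested were called lower in the Na2SeO3 group, as were 61% of all miRNAs tested, with 1.76% higher. Relative to that median miR-10a-5p was at -1.88 with TMM and -1.73 with raw reads, miR-10b-5p at -1.28 and -1.22, and miR-99a-5p at -0.47 and -0.47. The direction of miR-99b-5p and miR-99b-3p turned with raw reads (log2 fold changes of -1.02 and -0.87), and that of miR-125a-5p with library size only (0.01). All other members tested were lower under all 5 scalings. They were miR-10a-5p, miR-10b-5p, miR-99a-5p, miR-100-5p, miR-125b-5p, and both miR-125b 3p arms. With library size only, miR-100-5p and miR-125b-2-3p were at just -0.06 and -0.04.

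**Figure D4:**
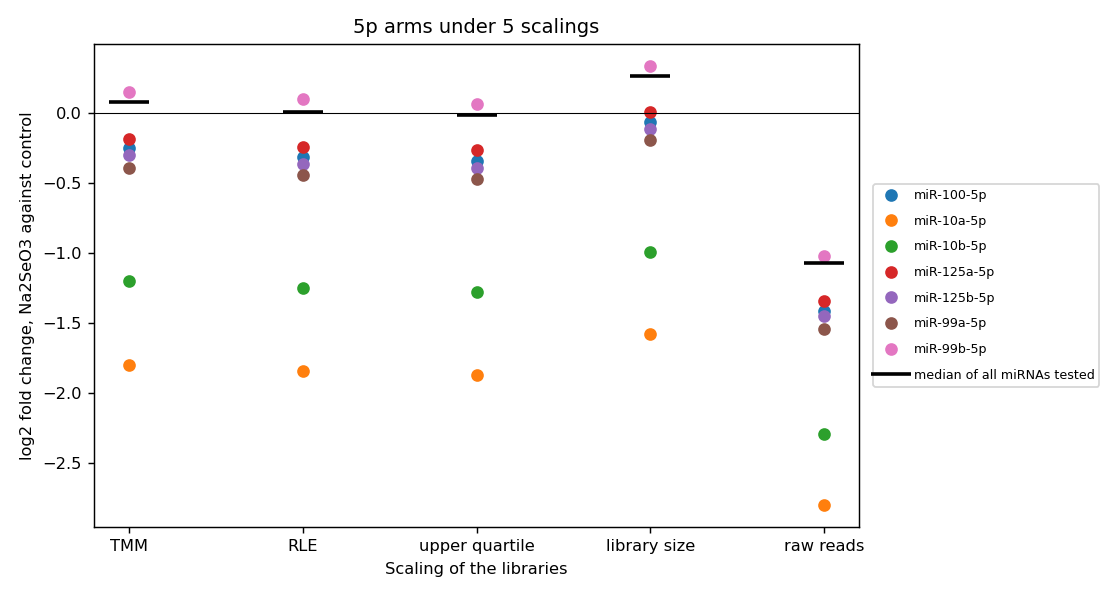
log2 fold changes of the 7 5p arms, Na2SeO3 against control, under the 5 scalings tried, with the median of all miRNAs tested as a black bar. The points move together with the bar, since a change of scale shifts all miRNAs nearly alike, and miR-10a-5p and miR-10b-5p lie furthest below it.

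The let-7 miRNAs that the clusters encode did not pass the test. Of the 8 arms listed for let-7a, let-7c, and let-7e, 6 could be tested, 0 rose and 0 fell, beside 20.8% higher and 13.8% lower among all miRNAs tested, with a median log2 fold change of -0.10. let-7c-5p, which Mirlet7c1 beside Mir99a encodes together with Mirlet7c2 elsewhere, was at 7851 ± 1154 CPM in the control group and 7100 ± 69.6 CPM in the Na2SeO3 group (SD, n = 3 each; log2 fold change -0.14, adjusted p = 0.494, edgeR). let-7a-5p and let-7e-5p had log2 fold changes of -0.05 and 0.05. The arms let-7a-1-3p and let-7c-2-3p had the same sequence and the same count in all 6 libraries, so they are a single measurement entered under 2 names. It was at 149, 147, and 168 CPM in the control group and at 124, 119, and 82.4 CPM in the Na2SeO3 group, without overlap, and the log2 fold change of -0.52 missed the threshold (adjusted p = 0.0519, edgeR). These names belong to let-7 genes outside the clusters, and the 4 other arms tested had a median of 0.00. let-7e, the product of the gene between Mir99b and Mir125a, was at 865 ± 113 and 896 ± 82.1 CPM in its 5p arm (SD, n = 3 each). The 3p arms of the other cluster genes were nearly absent, with 0 to 1 counts of let-7a-2-3p and 2 to 17 counts of let-7c-1-3p in a library.

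The other miRNAs of the Hox clusters were almost uncounted. Of 7 names of miR-196 and miR-615, 5 had no count in any library. miR-196a-5p had 1, 1, and 0 counts and miR-196b-5p had 0, 2, and 1 counts in control libraries 1 to 3, and both had none in the Na2SeO3 libraries. These levels are below the 3 counts taken as the floor, so no comparison was made.

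A miRNA outside the rule that shares the miR-125 seed was higher in the Na2SeO3 group, and its difference from the miR-125 arms was not tested. rno-miR-351-5p was the only other name in the RefSeq table with the seed CCCUGAG, and it was added for this seed after the counts had been seen.
rno-miR-351-5p: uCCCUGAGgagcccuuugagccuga

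miR-351-5p was at 40.7, 40.8, and 40.7 CPM in the control group and at 105, 95.2, and 103 CPM in the Na2SeO3 group. All Na2SeO3 libraries lay above the control libraries, and edgeR gave a log2 fold change of 1.31 with a standard error of 0.18 and an adjusted p of 0.000155. Per raw read its log2 fold change was 0.14 (adjusted p = 0.752, edgeR), which was 1.21 above the median of all miRNAs on that scale, and this was the only one of its alternatives with an adjusted p above 0.05. With 63 to 118 reads in a library, it was far below miR-125b-5p at 1953 to 9032 reads.

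Markers of the lens and of other cell types were counted in the same fit, to be read against 20.8% higher and 13.8% lower among all miRNAs tested. All 6 miRNAs of the lens list (miR-184, miR-204-5p, miR-205, miR-182, miR-183-5p, and miR-96-5p) were counted in every library. They summed to 234600 to 295500 CPM in the control group and 234100 to 251400 CPM in the Na2SeO3 group. Whether these reads came from lens cells alone was not tested, and neural and glial miRNAs were counted too. Of the lens list, all of it tested, 2 of 6 were lower and 0 were higher, although the sums, which were mostly miR-182, miR-183-5p, and miR-96-5p, overlapped. The 2 were miR-184, an abundant miRNA of lens epithelium, which fell 2.19-fold from 81390 ± 6580 to 37220 ± 3191 CPM (SD, n = 3 each, edgeR adjusted p = 3.48e-05), and miR-205, typical of surface epithelia, which fell 1.91-fold. miR-204-5p, also abundant in lens, was at a log2 fold change of -0.40 (edgeR adjusted p = 0.0869). Among 8 tested miRNAs of vessel wall and mesenchyme, tissues in which the miR-10 family is also known to be expressed, 3 were lower and 0 were higher. The 3 were miR-143-3p, miR-145-5p, and miR-145-3p, products of a cluster typical of smooth muscle, with log2 fold changes of -0.60, -0.85, and -0.73, while miR-126a-3p of endothelium was at 0.24 (adjusted p = 0.216, edgeR). The summed level of this list was 56820 to 65550 CPM in the control group and 51080 to 56740 CPM in the Na2SeO3 group. Of 6 striated muscle miRNAs 5 were tested, 4 were higher and 0 were lower, and their sum went from 7245 to 8791 CPM to 13470 to 14580 CPM. Of 8 blood cell miRNAs 7 were tested, 1 was higher and 0 were lower, with sums of 390 to 476 CPM and 548 to 621 CPM. The higher one was miR-486, at a mean of 137.2 CPM in the control group and 299.5 CPM in the Na2SeO3 group. The other blood miRNAs tested had log2 fold changes between -0.36 and 0.41, and none passed. Of 7 neural and glial miRNAs 6 were tested, 2 were higher and 1 was lower, with sums of 34610 to 41640 CPM and 39920 to 50530 CPM that were mostly miR-9a-5p. Within this list miR-219a-2-3p, known from oligodendrocytes, rose 19.2-fold from 4.12 ± 2.29 to 78.4 ± 6.57 CPM (SD, n = 3 each, edgeR adjusted p = 2.04e-06), while miR-338-3p, known from the same cells, was at a log2 fold change of -0.93 (edgeR adjusted p = 0.0519). None of these markers was at 0 in all libraries. The part of these cell types in the fall of the miR-10 arms was not tested.

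The miRNAs most like the members in pattern over the 6 libraries were found by the Pearson correlation of log2 CPM, given as a description, since the points share 2 groups of 3 libraries. For miR-10a-5p the highest were miR-129-1-3p and miR-129-2-3p, whose counts were the same in every library (both 0.951), followed by miR-149-5p (0.948), miR-342-3p (0.943), and miR-7a-5p (0.935). miR-149-5p itself was at a log2 fold change of only -0.05 (edgeR adjusted p = 0.835). For miR-99a-5p the highest were miR-26a-5p (0.993), miR-222-3p (0.981), miR-200b-3p (0.978), miR-205 (0.973), and miR-145-5p (0.968). Of these miR-205 is on the lens list and miR-145-5p on the vessel wall and mesenchyme list. For miR-10b-5p, added after the values were seen, the highest were miR-200c-3p (0.975), miR-375-3p (0.971), miR-184 (0.969), miR-34a-5p (0.962), and miR-145-5p (0.961). Among them miR-184 is on the lens list and miR-145-5p on the vessel wall and mesenchyme list. No other member was among any of these 5.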

How the data were processed

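Small RNA libraries from 3 control and 3 Na2SeO3 rat pups were compared, each from a separate animal. Adapters and poor ends were removed by the authors with Cutadapt and Fqtrim, FastQC served for quality control, and miRDeep with the Ensembl rat genome gave the unnormalized counts per miRNA name that the authors deposited. Tool versions are not given in the sources used here. The counts were used as deposited. After filterByExpr (minimum count 10) and TMM scaling, edgeR's quasi-likelihood test compared both groups without other factors. The study's methods name edgeR, without the kind of test, and its thresholds are the DEmiRNA rule, whereas calls here use the adjusted p below 0.05 alone. Standard errors are the log2 fold change divided by the root of F. Log2 CPM used a prior count of 2. For pair ratios a two-sided exact permutation test was used, whose smallest p for 3 against 3 libraries is 0.1. The procedure was tested on simulated counts. No library was a copy of another, since the chi-square of every pair was at least 28.0 times its degrees of freedom. Same-numbered libraries deviated in opposite directions (correlations of -0.17, -0.18, and -0.26 over 341 miRNAs), so the replicate numbers were not taken to pair animals. Because the reads carry no molecular identifiers, they are not independent molecules, and intervals and floors cover counting error alone. Library totals of 663096 to 2829903 counts set the precision. Named were all members, the let-7 arms of their clusters, the other Hox-cluster miRNAs, cell type markers, and the 5 miRNAs most correlated with miR-10a-5p and with miR-99a-5p. miR-351-5p and the correlates of miR-10b-5p were added after their values were seen. The members and lists were chosen with earlier results of these data known. Versions were edgeR 4.0.16, DESeq2 1.42.0, and limma 3.58.1 (R 4.3.3), with SciPy 1.17.1 (Python 3.11.15). Alternatives were other scalings (library size, RLE, upper quartile, raw reads), other filters, rat names only, DESeq2, limma-voom, robust dispersion, the replicate block, and each library left out.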

Additional observations from a re-analysis of the deposited data

How the results depend on the processing

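The number of members called was 3 of 10 and lay between 2 and 4 under each alternative except scaling to raw reads, where it was 10. It was 2 to 4 with each library left out in turn, and the called members were lower in the Na2SeO3 group in each case. Over all miRNAs the number called was 118, against 214 with raw reads (6 higher and 208 lower), 56 with the fold change threshold of the DEmiRNA rule, and 73 to 128 with each library left out. With library size only, 96 were higher and 30 lower, against 71 and 47 with TMM. The mean share of the members went from 16.6% to 5.12% in the control group and from 14.7% to 1.78% in the Na2SeO3 group when taken of raw reads, a denominator that includes reads not counted on miRNA names. With each library left out, the log2 difference in ratio ranged from -0.17 to 0.01 for miR-99a-5p to miR-125b-5p and from -0.02 to 0.12 for miR-100-5p to miR-125b-5p. Log2 fold changes turned to 0.01 for miR-125a-5p with library size only, to -1.02 and -0.87 for miR-99b-5p and miR-99b-3p with raw reads, and ranged from -0.09 to 0.27 for miR-99b-5p with each library left out. The turns with another scale followed the median of all miRNAs, which moved from 0.08 to -1.07 with raw reads and to 0.27 with library size only. For the turns with a library left out, the cause was not tested. Blocking on the replicate number left 97 miRNAs and 2 members called, and miR-99a-5p missed the threshold with a log2 fold change of -0.39 as before (adjusted p = 0.0607, edgeR), while miR-10a-5p and miR-10b-5p passed (adjusted p = 0.00564 and 0.00198, edgeR). No other member's call changed under the block. The lower number of counted reads in the Na2SeO3 libraries limits miR-10a-5p, with 20 to 35 reads each, and 5 of the 3p arms had too few reads for a test.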
